A study of Homo sapiens with 8 samples.

Results

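The small nuclear RNAs (snRNAs) of the minor spliceosome, U11, U12, U4atac and U6atac, were examined in HEK293, an established line from human embryonic kidney, after transfection with either of a pair of synthetic RNAs. Rows of the count table were taken whose name begins with RNU11, RNU12, RNU4ATAC or RNU6ATAC, or is U11, U12, U4atac or U6atac, in upper or lower case. This gave 20 of 2962 rows: 1 gene row for each of the 4 snRNAs and 16 pseudogene copies, whose names end in P, of which 5 belong to U4atac and 11 to U6atac. In 4 libraries (scramble) the cells carried a scrambled control mimic and in the other 4 (tDR) a tRNA-Asp-GTC-3'tDR mimic, which copies the 3′ fragment (a tRNA-derived RNA, tDR) of that tRNA. Both were delivered with Lipofectamine RNAiMax at 50 nM for 48 h, and total RNA was turned into OTTR-seq libraries, in which a reverse transcriptase joins both adapters in the act of copying. The comparison asks which small RNAs differ in amount once the fragment is present.

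Most human introns are removed by the major spliceosome, built on U1, U2, U4, U5 and U6. A small minority, the U12-type introns, are removed by a separate machine, in which U11 pairs with the 5′ splice site and U12 with the branch point as a joint particle. U4atac arrives base-paired to U6atac, together with the U5 that both machines share. U6atac then lets go of U4atac, replaces U11 at the 5′ splice site and pairs with U12 to form the catalytic centre. U11, U12 and U4atac are made by RNA polymerase II and carry a site for the ring of Sm proteins. U6atac is made by RNA polymerase III, ends in a run of uridines and is bound there by the LSm proteins. U6atac is known in human cells as a short-lived RNA that can limit splicing of minor introns.

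The gene sequences follow, read 5′ to 3′ from GENCODE release 29 (GRCh38, written with T for U), because the features that set U6atac apart from the other snRNAs can be seen in them. In RNU11 and RNU12 the capitals mark an Sm-type run, searched on the given strand as ATTTTTG or ATTTTTTG.
RNU11: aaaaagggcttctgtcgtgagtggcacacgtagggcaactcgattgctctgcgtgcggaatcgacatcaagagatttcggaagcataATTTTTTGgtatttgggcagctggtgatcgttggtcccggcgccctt
RNU12: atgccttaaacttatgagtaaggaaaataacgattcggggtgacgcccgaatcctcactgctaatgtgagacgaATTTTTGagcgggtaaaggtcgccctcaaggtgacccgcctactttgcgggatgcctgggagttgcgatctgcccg
RNU11 lies at chr1:28648600-28648733 on the plus strand and overlaps an exon of the long noncoding RNA AL360012.1. RNU12 lies at chr22:42615244-42615393 on the plus strand and overlaps an exon of the long noncoding RNA Z93241.1. The run begins at base 88 of RNU11, base 75 of RNU12 and base 116 of RNU4ATAC. It was found in all 5 U4atac copies and in 0 of 12 U6atac rows. Of 807 other rows of 70 to 160 bases that matched a GENCODE sequence, 42 held it (5.2%).

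The U4atac gene and a copy from each of its pairs or trios of near-equal counts are given next, with the 3′ end that each shares with the gene in capitals (for the gene, the end shared by all 6 U4atac rows).
RNU4ATAC: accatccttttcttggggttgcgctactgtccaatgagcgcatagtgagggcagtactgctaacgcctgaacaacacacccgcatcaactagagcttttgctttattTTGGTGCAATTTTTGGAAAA
RNU4ATAC10P: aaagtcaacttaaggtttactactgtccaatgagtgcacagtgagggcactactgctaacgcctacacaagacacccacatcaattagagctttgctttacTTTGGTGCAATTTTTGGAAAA
RNU4ATAC13P: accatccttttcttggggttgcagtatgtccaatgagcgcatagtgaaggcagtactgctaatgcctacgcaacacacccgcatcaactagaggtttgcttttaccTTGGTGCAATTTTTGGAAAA
RNU4ATAC lies at chr2:121530881-121531007 on the plus strand, in an intron of CLASP1, a gene on the opposite strand, and in an intron of the noncoding AC012447.1 on the same strand. RNU4ATAC10P (chr11:122449210-122449331) and its neighbour RNU4ATAC5P lie in an intron of MIR100HG, also on the opposite strand, and RNU4ATAC13P (chr5:113493835-113493960) overlaps no annotated protein-coding or long noncoding gene. The copies matched the gene at 81.9% to 90.6% of its bases in a global alignment, but their last 20 or 21 bases were identical to the end of the gene, Sm-type run included.

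The U6atac gene is given with the copies whose counts carry the comparison. In RNU6ATAC the capitals mark the final run of 6 T, and in the copies they mark bases that differ from the gene or are inserted.
RNU6ATAC: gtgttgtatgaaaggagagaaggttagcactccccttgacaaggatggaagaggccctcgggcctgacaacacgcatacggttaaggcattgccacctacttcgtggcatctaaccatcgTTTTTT
RNU6ATAC2P: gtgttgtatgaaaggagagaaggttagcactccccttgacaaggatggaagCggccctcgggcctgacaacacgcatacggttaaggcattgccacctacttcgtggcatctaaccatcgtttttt
RNU6ATAC28P: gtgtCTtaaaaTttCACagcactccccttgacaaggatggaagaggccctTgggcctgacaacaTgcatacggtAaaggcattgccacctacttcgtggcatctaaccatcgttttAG
RNU6ATAC26P: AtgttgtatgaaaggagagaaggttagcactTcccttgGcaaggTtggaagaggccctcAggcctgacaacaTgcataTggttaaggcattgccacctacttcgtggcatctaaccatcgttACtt
RNU6ATAC lies at chr9:134164439-134164564 on the minus strand. RNU6ATAC2P (chr5:56297564-56297689, minus strand), RNU6ATAC28P (chr14:83750384-83750501) and RNU6ATAC26P (chr3:57619447-57619572) lie, like the gene, outside annotated protein-coding and long noncoding genes. RNU6ATAC2P differs from the gene by 1 substitution, A52C, counted from the 5′ end of the gene, and keeps the final 6 T. RNU6ATAC26P has 9 substitutions and matched the gene at 92.9% of its bases, and RNU6ATAC28P has 8 mismatches and 14 gap positions and matched at 84.9%.

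The table held counts for 18 of the 20 rows in every library. Summed over the 20 rows they made up 0.0196% to 0.0316% of a library, and library totals ran from 4016295 to 10246336 counts. These sums may count a read more than once, since copies share sequence. A count of 0 allows up to 3 counts, which in the shallowest library is 7.47e-05% of the total (counting error only). The row scr2, whose name no label defines, separated the groups with 22444 to 58186 counts in the scramble libraries and 59 to 240 in the tDR libraries. Of 5 microRNAs typical of HEK293 cells all were listed, at a summed level of 939 to 1660 counts per 1000000 counts of the library (CPM) in the scramble and 507 to 1080 in the tDR libraries. Of 11 microRNAs of blood, endothelium, liver, muscle and neurons 6 were listed, at 4.98 to 8.96 and 6.99 to 14.6 CPM in sum; miR-451a, miR-144-3p, miR-142-3p, miR-150-5p and miR-122-5p had no row. Whether these levels move with those of the snRNAs was not tested. The labels do not tie replicates to separate cultures, so p-values measure only how these libraries vary, and that variation may be technical. In RNA from whole cultures, fewer cells holding an RNA and less of it per cell cannot be told apart, and row counts do not tell whole snRNAs from pieces of them.

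The 4 snRNA genes stood at similar levels in scramble cells. CPM values here and below are scaled by TMM. Per kilobase of gene, RNU11 gave 319 ± 17.8, RNU12 313 ± 13.5, RNU6ATAC 302 ± 28.2 and RNU4ATAC 264 ± 77 CPM (SD, n = 4 libraries each), and the ranges of any 2 neighbours in this order overlapped. In tDR cells the order became RNU11 with 344 ± 73.6, RNU12 with 307 ± 76.6, RNU4ATAC with 295 ± 33.8 and RNU6ATAC with 216 ± 18.3 CPM per kilobase. The last of these ranged from 202 to 242 and lay apart from RNU4ATAC (259 to 340) and RNU11 (287 to 447), while RNU12 (225 to 407) reached into it. RNU11 and RNU12, and RNU12 and RNU4ATAC, did not differ beyond their spread there. The overlap of RNU12 with RNU6ATAC and the order of the genes depend on the division by gene length. Undivided, RNU12 in tDR cells (33.8 to 61.1 CPM) did not reach RNU6ATAC (25.5 to 30.5 CPM). In scramble cells RNU12, at 46.9 ± 2.02 CPM undivided, then stood above RNU11, at 42.7 ± 2.39 CPM.

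Of the 20 rows, 14 passed the filter on low counts and were tested, with edgeR's quasi-likelihood test across all 1761 rows that passed. At a Benjamini-Hochberg adjusted p below 0.05, 2 members fell in the tDR libraries and 0 rose. Of all tested rows 6.7% were called, 1.36% lower and 5.34% higher. Both, RNU6ATAC28P and RNU6ATAC26P, are U6atac copies. None of the 4 gene rows was called by edgeR or limma-voom, and DESeq2 called RNU6ATAC lower. No member was called higher by DESeq2 or limma-voom. At an unadjusted p below 0.05 edgeR had 5 members lower, all of them U6atac rows, and 0 higher. Of the 5, RNU6ATAC10P passed the filter through its scramble values, which leaves 4. The shares of all tested rows were 8.69% lower and 12.8% higher. The groups did not overlap, with tDR lower, for 4 members, all U6atac rows, and with tDR higher for 0, against 5.51% and 7.78% of all tested rows. The U6atac rows share sequence and can share reads, so these counts of members are not of independent rows.

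**Figure D1:**
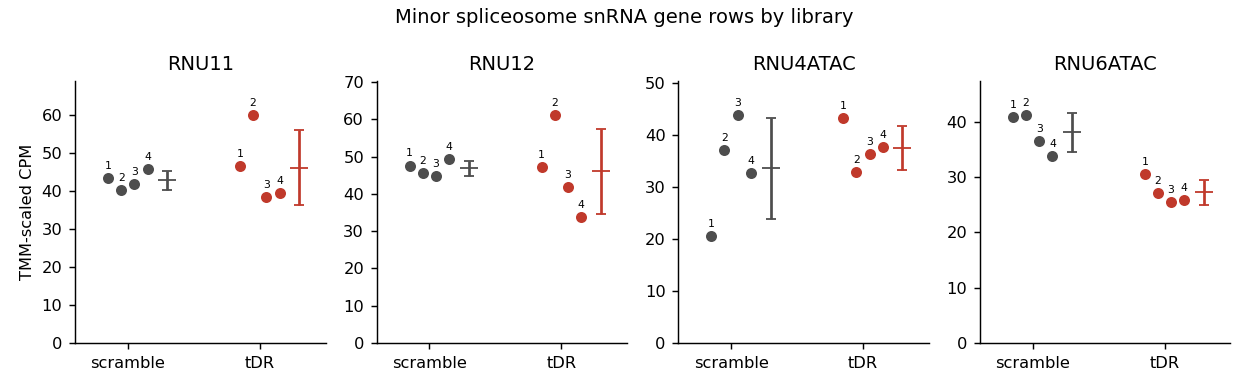
TMM-scaled CPM (y axis) of the 4 gene rows in the 4 scramble (grey) and 4 tDR (red) libraries; points are libraries with their replicate number, and the bar beside them is the mean with its SD. The groups overlap for RNU11, RNU12 and RNU4ATAC, and for RNU6ATAC the tDR libraries (25.5 to 30.5) lie under the scramble libraries (33.8 to 41.2).

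Of the intron-recognising pair, RNU11 stood at 43.3, 40.1, 41.8 and 45.7 CPM in the scramble libraries and at 46.5, 59.9, 38.4 and 39.5 CPM in the tDR libraries (scaled by TMM and given in the order of libraries 1 to 4, as are the values that follow). The groups overlapped, with tDR library 2 the highest of all. Its log2 fold change was 0.11 (SE 0.16, with an edgeR adjusted p of 0.811). RNU12 stood at 47.6, 45.6, 44.9 and 49.4 CPM in the scramble and at 47.3, 61.1, 41.9 and 33.8 CPM in the tDR libraries. It had the same high library, tDR library 2, and its lowest value in tDR library 4. Its log2 fold change was -0.029 (SE 0.17, with an edgeR adjusted p of 0.939). For both RNAs the 4 scramble libraries lay close together (SD 2.39 and 2.02 CPM) and the 4 tDR libraries were spread more widely (SD 9.86 and 11.5 CPM). The sign of neither held with single libraries left out: RNU11 was at -0.038 without tDR library 2, and RNU12 at 0.015 without tDR library 3 and 0.096 without tDR library 4. The signs also changed for RNU11 under total counts (-0.05, where the median of all tested rows was -0.13) and for RNU12 under scaling on microRNAs alone (0.28, where that median was 0.36).

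U11 and U12 act as 1 particle, and their raw counts stayed near parity in each library. The ratio of RNU11 to RNU12 was 0.909, 0.879, 0.93 and 0.926 in the scramble group and 0.983, 0.98, 0.917 and 1.17 in the tDR group. Being formed within a library, it does not depend on scaling. The groups overlapped through tDR library 3, and the difference did not pass an exact permutation test (two-sided p = 0.0857, adjusted p = 0.129 over the 6 ratios between gene rows).

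RNU4ATAC, the RNA that escorts U6atac, stood at 20.6, 37.1, 43.8 and 32.7 CPM in the scramble group and at 43.2, 32.9, 36.3 and 37.6 CPM in the tDR group. Scramble library 1 held the lowest value, and the other scramble libraries overlapped the tDR libraries. The log2 fold change was 0.17 (SE 0.19, with an edgeR adjusted p of 0.704), and without scramble library 1 it was -0.0059.

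RNU6ATAC, the RNA of the catalytic centre, stood at 40.8, 41.2, 36.6 and 33.8 CPM in the scramble group and at 30.5, 27.1, 25.5 and 25.8 CPM in the tDR group. Every tDR library lay under every scramble library. The means were 38.1 ± 3.55 and 27.2 ± 2.31 CPM, and the log2 fold change was -0.48 (SE 0.15, with an edgeR adjusted p of 0.0662), which did not pass. DESeq2 gave an adjusted p of 0.00618 for a log2 fold change of -0.50, and the values over all 19 alternatives ran from -0.62 to -0.17, each below 0. The adjusted p passed the threshold in 6 of the 19 alternatives, among them those without tDR library 1 (0.0416) and without scramble library 4 (0.0444). In the other 13 it ran from 0.0506 to 0.652. The highest came under scaling on microRNAs alone, where the log2 fold change was -0.17 and the median of all tested rows 0.36.

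Set against its partners within each library, RNU6ATAC had a lower mean ratio in tDR cells. These ratios reuse the RNU6ATAC counts above and were chosen after values were seen, so they are not a separate observation. The ratio of RNU6ATAC to RNU4ATAC was 1.98, 1.11, 0.836 and 1.03 in the scramble libraries and 0.707, 0.825, 0.701 and 0.688 in the tDR libraries. The groups did not overlap, though scramble library 3 lay close to tDR library 2 and scramble library 1 stood far above the rest. The ratio to RNU11 was 0.941, 1.03, 0.876 and 0.739 in the scramble and 0.657, 0.453, 0.663 and 0.654 in the tDR libraries, again with no overlap. Each of these had a two-sided exact permutation p of 0.0286, the lowest possible with 4 libraries a group, and neither passed after adjustment over the 6 ratios (adjusted p = 0.0857). The ratio to RNU12 overlapped between groups through tDR library 4, at 0.764 (0.684 to 0.904 in the scramble and 0.444 to 0.764 in the tDR libraries, exact permutation p = 0.0571, adjusted p = 0.114).

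**Figure D2:**
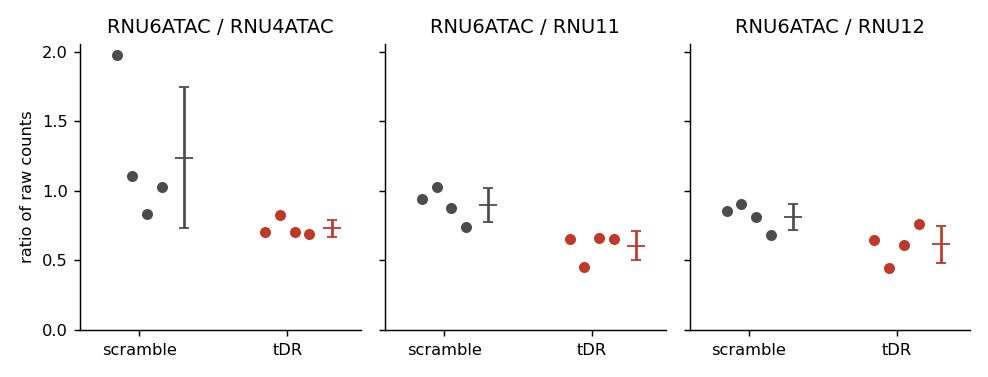
Ratio of raw counts (y axis) of RNU6ATAC to each of the other 3 gene rows in the 4 scramble (grey) and 4 tDR (red) libraries; points are libraries in order of replicate number, and bars are the mean with its SD. The tDR libraries lie under the scramble libraries for RNU4ATAC and RNU11, and tDR library 4 reaches into the scramble range for RNU12.

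The U6atac copies also had lower means in the tDR libraries, though they can share reads with the gene and with each other. Of the 20-base stretches of RNU6ATAC28P, 43 of 99 occurred in no other member, and of those of RNU6ATAC26P 38 of 107. RNU6ATAC28P gave 14.7, 19.3, 19.8 and 21.6 CPM in the scramble group and 12.5, 12.6, 8.49 and 10.9 CPM in the tDR group. The groups did not overlap, with scramble library 1 nearest to the tDR values. It fell by 0.76 on the log2 scale (SE 0.20, with an edgeR adjusted p of 0.026), from 18.9 ± 2.92 to 11.1 ± 1.94 CPM. RNU6ATAC26P gave 5.84, 6.07, 5.84 and 7.23 CPM in the scramble and 3.41, 3.12, 3.06 and 2.93 CPM in the tDR libraries. Here the groups were wide apart and the tDR libraries close together. It fell by 1.00 (SE 0.25, with an edgeR adjusted p of 0.0175), from 6.24 ± 0.665 to 3.13 ± 0.201 CPM.

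RNU6ATAC2P, the near-identical copy printed above, gave 37.8, 37.8, 38.6 and 33.2 CPM in the scramble and 31.3, 25.7, 23.2 and 21.6 CPM in the tDR libraries. The groups did not overlap, and its log2 fold change of -0.53 (SE 0.16, with an edgeR adjusted p of 0.0572) did not pass, while DESeq2 called it (adjusted p = 0.00519). Its counts were 83.8% to 106% of those of RNU6ATAC, library by library. Reads that do not cover base 52 cannot be assigned to 1 of the pair by their sequence, so the pair is not 2 independent observations. RNU6ATAC5P overlapped between groups, at 6.35, 5.22, 8.53 and 7.4 CPM against 7.09, 6.23, 3.9 and 3.21 CPM (a fitted log2 change of -0.41 with SE 0.28, adjusted p = 0.422 by edgeR). In it tDR libraries 1 and 2 sat within the scramble range and tDR libraries 3 and 4 beneath it. RNU6ATAC10P stood at 4.45, 3.32, 1.35 and 1.48 CPM in the scramble and at 1.5, 1.4, 0.696 and 0.977 CPM in the tDR libraries (a fitted log2 change of -1.23 with SE 0.45, adjusted p = 0.115 by edgeR). The groups overlapped. It reached the level of the filter in 4 scramble libraries and 1 tDR library, so it was tested because of its scramble values.

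**Figure D3:**
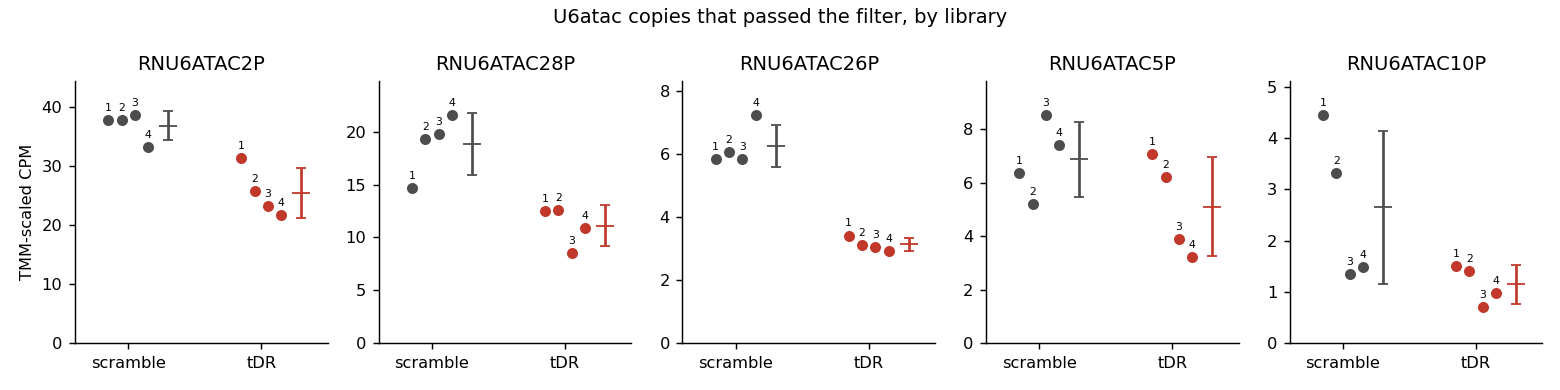
TMM-scaled CPM (y axis, a separate scale for each panel) of the 5 U6atac copies that passed the filter, in the 4 scramble (grey) and 4 tDR (red) libraries; points are libraries with their replicate number, and bars are the mean with its SD. RNU6ATAC2P, RNU6ATAC28P and RNU6ATAC26P show no overlap between groups, and RNU6ATAC5P and RNU6ATAC10P do.

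The other 6 U6atac copies (RNU6ATAC7P, RNU6ATAC20P, RNU6ATAC25P, RNU6ATAC32P, RNU6ATAC38P and RNU6ATAC41P) were too sparse to test, with mean counts of 1.62 to 9 and at most 20 counts in any library. For each of the 12 U6atac rows the mean CPM was lower in the tDR group. The groups overlapped for these 6, as for RNU6ATAC5P and RNU6ATAC10P. At such counts a lower mean can rest on a few reads: RNU6ATAC20P had at most 6 counts in a library. Leaving out RNU6ATAC10P for its scramble-only passage of the filter, the other 5 tested U6atac rows had a median log2 fold change of -0.53, with RNU6ATAC26P the lowest and RNU6ATAC5P, at -0.41, the highest. The median of all tested rows was 0.02, and 47.8% were below 0. Since rows can share reads, the 5 values are not independent.

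Both calls were lost when some single libraries were left out. RNU6ATAC28P did not pass if any of scramble libraries 2, 3 and 4 or of tDR libraries 3 and 4 was dropped, with log2 fold changes of -0.77 to -0.65 (edgeR adjusted p between 0.0589 and 0.0745). RNU6ATAC26P did not pass if tDR library 4 was dropped, at -0.97 (edgeR adjusted p = 0.0504). Under scaling on microRNAs alone neither passed, at log2 fold changes of -0.42 and -0.66 (edgeR adjusted p = 0.192 and 0.133). That scaling moved the median of all tested rows to 0.36.

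None of the U4atac copies passed the test. RNU4ATAC10P gave 4.57, 5.97, 10.1 and 7.84 CPM in the scramble group and 8.04, 5.46, 7.65 and 8.24 CPM in the tDR group. Scramble libraries 1 and 3 were the lowest and the highest of all 8, and the log2 fold change was 0.075 (SE 0.26, with an edgeR adjusted p of 0.914). RNU4ATAC5P had the same counts in 7 libraries and differed by 1 count in the remaining one. RNU4ATAC9P and RNU4ATAC11P had identical counts in all 8 libraries, and RNU4ATAC13P differed from them by at most 1 count, so the 5 copies were taken as 2 sets of reads. The RNU4ATAC13P set held 24, 42, 30 and 58 counts in the scramble and 47, 25, 46 and 51 counts in the tDR libraries, overlapping, with a log2 fold change of 0.38 (SE 0.28, with an edgeR adjusted p of 0.478). Of the 6 U4atac rows, edgeR, DESeq2 and limma-voom each called 0, and 0 had an unadjusted edgeR p below 0.05. Their median log2 fold change was 0.27, and all 6 values were above 0, as were 52.2% of all tested rows. Without scramble library 1 the number above 0 was 3, and without scramble library 2 it was 4. Under total counts it was also 4, with the median of all tested rows at -0.13.

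**Figure D4:**
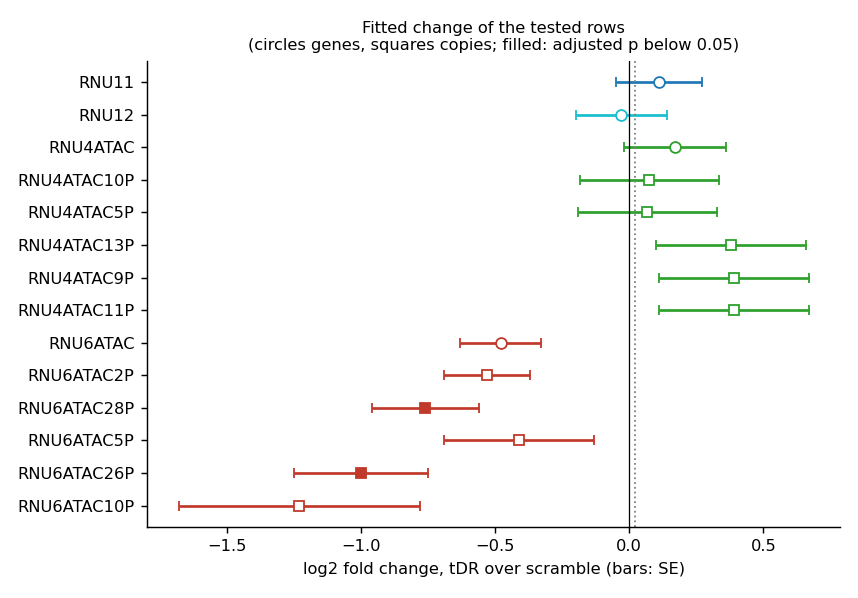
Fitted log2 fold change of tDR over scramble (x axis) for the 14 tested rows, with bars of 1 SE; circles are genes, squares copies, filled symbols have an adjusted p below 0.05, and the dotted line is the median of all tested rows, 0.02. The U4atac rows lie between 0.068 and 0.39 and the U6atac rows between -1.23 (RNU6ATAC10P, tested because of its scramble values) and -0.41.

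Genes and copies were then compared by sequence, without regard to treatment, to see which copies carry counts. The U6atac gene has 107 windows of 20 bases. RNU6ATAC2P held 87 of them, and 12 windows of the gene occurred in no other member row. RNU11 and RNU12, which have no copy in the table, shared none of their 115 and 131 windows with another member.

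Copies with high counts held windows from the 3′ part of U6atac. Summed over the 8 libraries, RNU6ATAC2P reached 94.9% of the counts of its gene, RNU6ATAC28P 46.7%, RNU6ATAC5P 17.9% and RNU6ATAC26P 14.8%. These 4 held 44, 22, 13 and 24 windows lying wholly on the 3′ side of the gene's midpoint. RNU6ATAC10P, RNU6ATAC38P, RNU6ATAC25P, RNU6ATAC32P, RNU6ATAC7P and RNU6ATAC20P held none lying wholly on that side and reached 6.03%, 3.47%, 3.23%, 2.46%, 1.74% and 0.627%. RNU6ATAC10P did share bases 60 to 80 of the gene, a stretch that crosses the midpoint and lies mostly past it. The number of windows from the 5′ side did not follow the counts: RNU6ATAC10P held 39 and RNU6ATAC7P 36, more than the 14 of RNU6ATAC28P. RNU6ATAC41P departed from the pattern, with 13 windows from the 3′ side and 1.4% of the gene's counts. The pattern was seen in these values and not tested, and read positions were not used here.

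**Figure D5:**
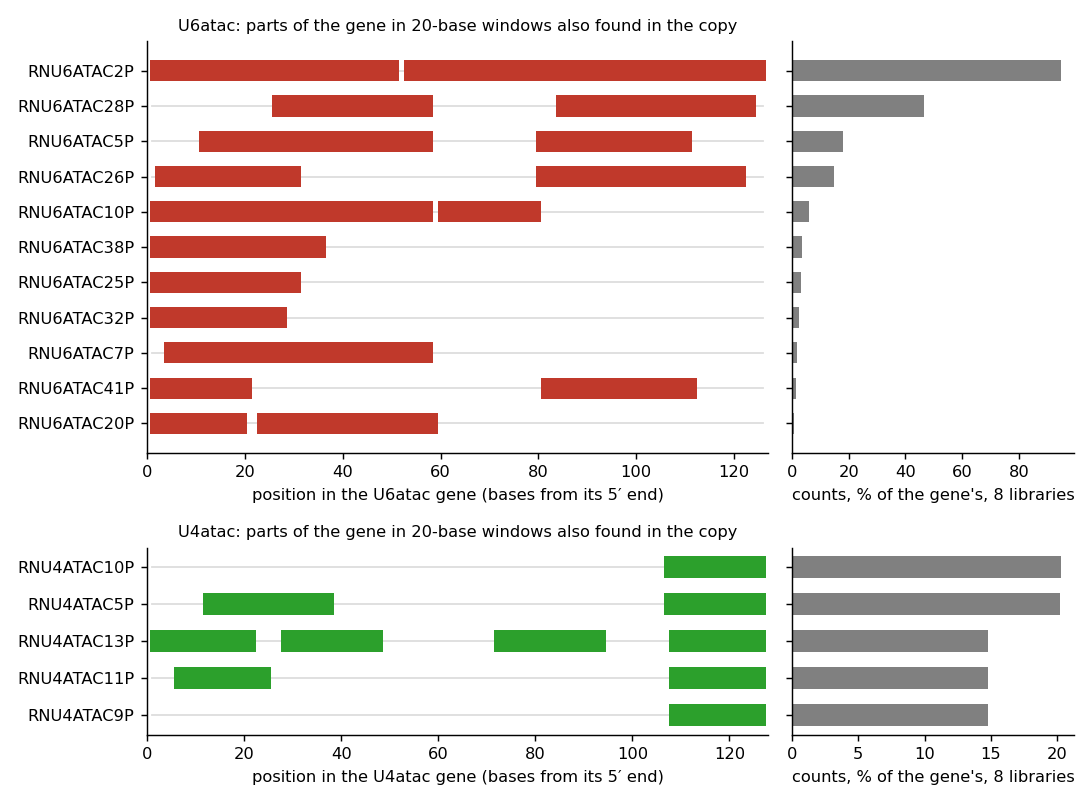
Left, parts of the U6atac (red, top) and U4atac (green, bottom) genes covered by 20-base windows that also occur in each copy, along the gene from its 5′ end (x axis, bases); right, counts of the copy as a percentage of the gene's counts over the 8 libraries. The 4 U6atac copies with the most counts hold parts of the 3′ side, as do RNU6ATAC41P and, in a stretch across the midpoint, RNU6ATAC10P. All 5 U4atac copies hold the last 20 or 21 bases of the gene.

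For U4atac the sets of equal counts matched the shared 3′ ends. RNU4ATAC10P and RNU4ATAC5P share their last 34 bases and reached 20.3% and 20.2% of the counts of RNU4ATAC. RNU4ATAC9P, RNU4ATAC11P and RNU4ATAC13P share their last 26 bases and each reached 14.8%. The copies lie on chromosomes 11, 4, 9 and 5, so equal counts occurred across chromosomes. RNU4ATAC10P had 2 windows of the gene, and RNU4ATAC9P had 1, its last.

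Of the 16 copies looked at, RNU6ATAC26P alone had a share of its gene's counts that separated the groups. It held 14.3%, 14.7%, 16% and 21.4% of the RNU6ATAC counts in the scramble group and 11.2%, 11.5%, 12% and 11.4% in the tDR group. The tDR values lay under the scramble values in every library. For the other 10 U6atac copies and the 5 U4atac copies the groups overlapped in this share, with RNU6ATAC28P at 36.1% to 63.9% and 33.3% to 46.6%. These shares were not tested. Groups of 4 libraries separate by chance at a rate of 0.0286 (the lowest possible exact permutation p), and 16 copies were looked at. The share of RNU6ATAC26P also reuses the counts on which that copy was called lower, so its separation is not a separate observation.

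Among other snRNAs, 34 rows are genes of U1, U2, U4, U5 and U6, which act in splicing, and of U7, which acts in forming the 3′ ends of histone mRNAs. Of these, 31 were tested, 3 rose and 0 fell, with a median log2 fold change of 0.12. Of all tested rows, 5.34% rose and 1.36% fell. The 3 belong to the U1 family, whose rows can share reads: RNVU1-19, RNVU1-1 and RNVU1-7, with log2 fold changes of 1.36, 1.18 and 0.81 (SE 0.17, 0.17 and 0.16, edgeR adjusted p = 4.09e-05, 9.38e-05 and 0.0028). At an unadjusted edgeR p below 0.05, 13 were higher and 2 lower, against 12.8% and 8.69% of all tested rows. DESeq2 called 11 higher, all of the U1 family, and 0 lower, against 194 of all 1761 rows in either direction. The 31 tested rows made up 23 sets of reads, so these counts are not of independent rows. The 5 U6 genes, the counterparts of U6atac, had log2 fold changes of -0.15 to -0.08, and RNU6-1 stood at 4443 ± 551 and 4204 ± 629 CPM (SD, n = 4 each, a log2 fold change of -0.08 with SE 0.14). The counterparts of U4atac, RNU4-1 and RNU4-2, had 0.027 and -0.088, and the 5 rows of U5, which serves both spliceosomes, 0.0035 to 0.35. Of these U4, U5 and U6 rows edgeR, DESeq2 and limma-voom called none, and at an unadjusted edgeR p below 0.05 there was 1, a U5 row that was higher. Whether U6atac differs from U6 in its change was not tested. The Cajal body RNAs, which guide the modification of snRNAs, had 28 rows, 24 of them tested. Of these edgeR, DESeq2 and limma-voom each called 0, at an unadjusted edgeR p below 0.05 there were 2 higher and 0 lower, and the median log2 fold change was 0.032.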

How the data were processed

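Small RNA was counted in 8 HEK293 libraries, 4 per group by their labels. The deposited counts are whole numbers per small RNA row. Per the submitters' processing notes the genome was hg38; aligner, counter and annotation: not given in the sources used here. A further deposited table is a normalized signal that equals each count divided by a factor per library, 1 set of factors for tRNA rows and 1 for all others.

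Of 2964 rows, 2 (scr and scr2) name no gene and stayed out of totals and tests. Rows were tested with edgeR 4.0.16 in R 4.3.3 (filterByExpr with its minimum count of 10, TMM, robust quasi-likelihood F test, no covariates), with Benjamini-Hochberg adjustment over 1761 tested rows; SE is the log2 fold change over the square root of F. Alternatives used DESeq2 1.42.0 and limma 3.58.1, the latter also on log2 of the normalized signal plus 1. The 19 alternatives changed the scaling, the filter, the tool, the treatment of shared reads or the block, or left out 1 library. Library pairs within a group were compared by chi-square (at least 16.2 per degree of freedom over 12 pairs), and each counted as 1 sample. Rows within 10% or 3 counts of each other in every library, within a family, were taken as 1 set of reads. Ratios used exact permutation tests over 70 arrangements and, like the remaining copies and the U1 rows named, were chosen after values were seen. Sequences and positions come from GENCODE release 29 (GRCh38), which may not be the annotation behind the counts; all 20 rows matched by name, and alignments used Biopython 1.88. The members and lists were chosen with earlier results of these data known. Named by rule were the 4 gene rows, every called member and the most abundant copy of each snRNA.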

Additional observations from a re-analysis of the deposited data

Results flagged for a closer look

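In 3 of 28 groups of 4 libraries over the tested members 1 library stood far from the other 3 where chance gives about 1 in 20. RNU6ATAC26P was highest in scramble library 4, at 7.23 CPM against 5.84 to 6.07 in the other scramble libraries. RNU6ATAC2P was lowest in scramble library 4, at 33.2 CPM against 37.8 to 38.6. RNU4ATAC5P was lowest in tDR library 2, at 5.46 CPM against 7.65 to 8.1. It only just passed the limit, and RNU4ATAC10P, taken as the same reads, did not (5.46 CPM against 7.65 to 8.24). Rows that share reads were counted separately among the 28 groups.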

How the results depend on the processing

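The 2 called members became 4 with DESeq2 size factors, 4 under total counts, 4 with the DESeq2 Wald test, 0 when TMM used only microRNAs, 0 with the replicate block, and 0 to 4 with 1 library left out. In each of these the called members were lower and 0 were higher. The 4 are RNU6ATAC, RNU6ATAC2P, RNU6ATAC26P and RNU6ATAC28P. With the replicate block, RNU6ATAC26P and RNU6ATAC28P kept log2 fold changes of -0.99 and -0.76 (edgeR adjusted p = 0.0984 and 0.151). Same-numbered libraries had correlations of -0.34, -0.18, -0.26 and -0.12, which show no shared replicate effect in these values. They cannot settle whether the replicates were paired by experiment, which the labels do not say. The cause of the lost calls was not tested. Over 19 alternatives, 11 values of the rows named by rule changed sign, none of them called. Sign changes of other members are not in this count. RNU11 was -0.05 under total counts and -0.038 without tDR library 2. RNU12 was 0.28 under scaling on microRNAs alone, 0.0034 with the authors' factors, 0.022 with shared reads taken once, 0.015 without tDR library 3 and 0.096 without tDR library 4. RNU4ATAC was -0.0059 without scramble library 1. RNU4ATAC10P was -0.077 under total counts, -0.084 without scramble library 1 and -0.0066 without scramble library 2. With 1 library left out the ranges were -0.038 to 0.19 for RNU11, -0.19 to 0.096 for RNU12, -0.0059 to 0.29 for RNU4ATAC and -0.084 to 0.23 for RNU4ATAC10P. The cause was not tested. Of all tested rows 118 were called, against 136 with DESeq2 size factors, 93 under total counts and 158 when TMM used only microRNAs. The number was 185 with the authors' factors, 194 with the DESeq2 Wald test and 188 with limma on the normalized signal. It was 39 with the replicate block and 65 to 164 with 1 library left out. RNU6ATAC26P was not fitted at a mean count of at least 50, which it does not reach. Total counts moved the median of all rows to -0.13. Depth limits the 6 copies with a mean count of at most 9, which were not tested.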
